A study of Mus musculus with 18 samples.

Results

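Male germ cells run energy metabolism with a set of genes used in place of, or beside, the forms found in body cells, and 10 of these genes were followed in cultured mouse testes. They are Ldhc, Pgk2, Gapdhs, Pdha2, Eno4, Pgam2, Hk1, Slc2a3, Slc16a7 and Cyct. They were taken by name, with earlier results of these data known. All 10 are among the 22657 genes of the table, and all 10 had at least 1 FPKM in each of the 18 samples. FPKM counts fragments per length of transcript and per total of fragments, so levels of different genes can be set side by side.

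The testes came from ICR mice. Mice given no busulfan supplied the testes of groups A0, A10 and A50, which were held for 48 h in DMEM/F12 medium with 10% fetal bovine serum and 0, 10 or 50 µg/mL of alginate oligosaccharides (AOS), short sugar chains made from alginate of brown algae. For B0, BA10 and BA50 the donors, of the same age, had received busulfan once, at 40 µg per g body weight and 3 weeks of age, 2 weeks before the testes were taken, and they were cultured with the same 3 AOS concentrations. Busulfan alkylates DNA and depletes germ cells that divide. Each group had 3 samples. The study's design text gives AOS in mg per kg body weight, whereas the sample labels and the methods give µg/mL of medium, which is used here. The study's methods give 6 testes per treatment and 3 repeats. Neither they nor the labels tie a sample to a repeat or an animal, so p-values measure the spread between these samples, whatever its source.

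Glycolysis splits glucose into pyruvate and lactate. Somatic cells run it with housekeeping enzymes, while spermatocytes and spermatids switch on their own forms of several steps, some of them made by retrogenes that stand in for X-linked genes silenced in meiosis. Sertoli cells supply lactate to meiotic and later germ cells, and the germ cell forms of the late steps are attached to the sperm tail, where they make ATP for motility.

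The members act in this order. Slc2a3 is the glucose transporter GLUT3 and Hk1 is hexokinase 1, which traps glucose as its phosphate. Gapdhs, Pgk2, Pgam2 and Eno4 carry out the glyceraldehyde-phosphate dehydrogenase, phosphoglycerate kinase, phosphoglycerate mutase and enolase steps. Ldhc is the testis lactate dehydrogenase, and Slc16a7 is MCT2, a carrier of lactate and pyruvate. Pdha2 is the testis form of the E1 alpha subunit of pyruvate dehydrogenase, which feeds pyruvate into the mitochondrion, and Cyct is the testis cytochrome c of the respiratory chain. Hk1, Slc2a3 and Slc16a7 are also used in cells other than germ cells, and Pgam2 is also the muscle form.

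Ldhc was the most abundant member in every group. Over the 18 samples its mean was 975.5 FPKM, the rank of 24 among all 22657 genes. Pgam2 had a mean of 258.8 FPKM, Gapdhs 206, Pgk2 188, Hk1 132, Slc2a3 104, Slc16a7 64.0, Cyct 41.0, Pdha2 33.6 and Eno4 5.69. In A0 the order was Ldhc (856 ± 194 FPKM, mean ± SD, n = 3), Pgam2 (219.7 ± 45.0), Gapdhs (155 ± 62.1), Pgk2 (153 ± 43.3), Slc2a3 (120.5 ± 31.0), Hk1 (109 ± 31.1), Slc16a7 (52.2 ± 17.4), Cyct (48.9 ± 13.8), Pdha2 (33.2 ± 7.72) and Eno4 (5.16 ± 0.890). Only the steps from Ldhc to Pgam2, from Hk1 to Slc16a7 and from Pdha2 to Eno4 separated neighbours whose A0 samples did not overlap. In B0 the order was different below Hk1, with Slc16a7 at 52.0 ± 9.28 FPKM, Slc2a3 at 26.9 ± 8.74, Pdha2 at 16.2 ± 4.30, Cyct at 10.8 ± 5.00 and Eno4 at 4.16 ± 3.06.

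**Figure D1:**
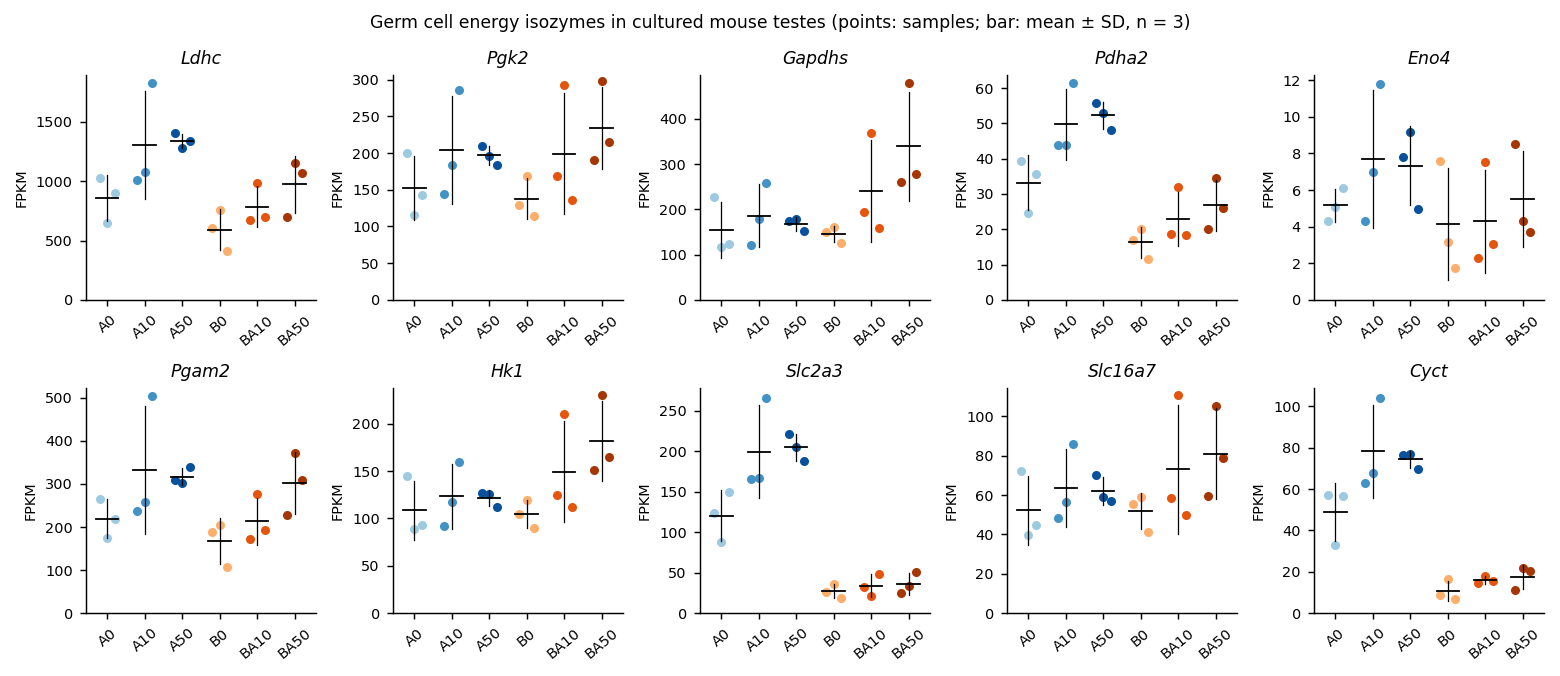
FPKM of the 10 isozymes in each sample of the 6 groups (points), with the group mean and SD (bars, n = 3) and a linear y axis from 0 in each panel. Slc2a3 and Cyct lie lower in the 9 busulfan samples than in any of the 9 others, Pdha2 is lower at each AOS concentration, and Gapdhs and Hk1 are highest in BA50.

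The samples as a whole were alike in depth only as far as FPKM can show. Read counts are unknown, the FPKM of a sample summed to 463970 to 511274, and Pearson's r between samples of a group, taken over the genes as log2(FPKM + 1), was 0.929 to 0.988. A set of 3 samples stood apart. A10 replicate 3 had the lowest Sertoli marker sum, 1512 FPKM, and the highest Ldhc level. BA10 replicate 2 and BA50 replicate 2 had the highest spermatid marker sums of their groups, 6626 and 10930 FPKM. Fat cell markers summed to 47.0 to 312 FPKM in B0 and to at most 16.2 FPKM in every other group.

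Busulfan was first compared with no busulfan over the 3 AOS concentrations. The values of each gene were compared on log2(FPKM + 1) with limma in 1 fit of 15790 genes and all 18 samples, with adjusted p-values taken over all genes. This scale understates changes of low genes. A call needed both an adjusted p of 0.001 or less and a log2 change of 1 or more in either direction. Of the 10 isozymes, 3 were called lower (Slc2a3, Cyct and Pdha2) and 0 higher. Over all genes, 3.52% were called lower and 0.0887% higher. The median log2 change of the members was -0.44, against 0.01 over all genes.

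Slc2a3, the glucose transporter, moved most. Its FPKM without busulfan were 124, 88.1 and 149.9 in A0, 166, 167 and 266 in A10, and 221, 206 and 188 in A50. With busulfan they were 25.9, 36.1 and 18.7 in B0, 31.9, 21.2 and 48.9 in BA10, and 24.9, 32.9 and 51.0 in BA50. The 9 busulfan samples all lay under the lowest of the 9 others. The mean was 5.40-fold lower with busulfan (175 against 32.4 FPKM), and the log2 change was -2.41 ± 0.19 (SE), with an adjusted p of 8.9e-08 by limma and an exact permutation p of 0.00025, the smallest that permutation within AOS concentrations can give. The gene lies at chr6:122727809-122801640 of GRCm38, on the minus strand, with 10 exons in its principal coding transcript.

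Cyct, the testis cytochrome c, fell by a similar amount. It had 57.1, 33.0 and 56.7 FPKM in A0, 62.8, 67.9 and 104 in A10, and 76.3, 77.0 and 69.8 in A50. With busulfan it had 8.80, 16.4 and 7.04 FPKM in B0, 14.5, 18.1 and 15.4 in BA10, and 11.0, 21.7 and 20.3 in BA50. Again the groups with and without busulfan did not overlap. The mean was 4.54-fold lower, and the log2 change was -2.13 ± 0.18 (adjusted p = 1.6e-07, limma; exact permutation p = 0.00025). Cyct lies at chr2:76353942-76360450, on the minus strand, with 4 exons. Groups without any overlap in that direction were found for 9.66% of all genes, and for 2 of the 10 members.

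Pdha2, the testis pyruvate dehydrogenase subunit, is a retrogene with a single exon at chr3:141210004-141212355, minus strand, while its counterpart Pdha1 lies on the X chromosome. Its FPKM were 39.4, 24.6 and 35.7 in A0, 44.0, 43.9 and 61.3 in A10, 55.7, 52.9 and 48.2 in A50, 17.0, 20.1 and 11.6 in B0, 18.8, 31.8 and 18.4 in BA10, and 19.9, 34.4 and 26.1 in BA50. At each AOS concentration the busulfan samples lay under the others, although the highest of them overlapped A0. The mean was 2.05-fold lower, with a log2 change of -1.02 ± 0.15 (adjusted p = 5.5e-05, limma; exact permutation p = 0.00025). The value sits at the fold limit, and it slipped under that limit, to between -0.95 and -0.98, when any of 6 single samples was left out (A0 replicate 1, A10 replicate 3, B0 replicate 3, BA10 replicates 1 and 3, BA50 replicate 1), and to -0.99 with quantile normalization.

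Ldhc, at chr7:46861203-46878142 on the plus strand, is the lactate dehydrogenase of spermatocytes and later cells. It had 1024, 644 and 898 FPKM in A0, 1012, 1076 and 1828 in A10, and 1402, 1281 and 1339 in A50. With busulfan it had 604, 759 and 412 FPKM in B0, 674, 981 and 701 in BA10, and 702, 1155 and 1068 in BA50. The mean was 1.49-fold lower with busulfan. The log2 change of -0.58 ± 0.16 had an adjusted p of 0.0103 (limma) and an exact permutation p of 0.00175, and did not reach the fold limit. With an adjusted p under 0.05 and no fold limit, 4 of the 10 members were lower (the 3 called genes and Ldhc) and 0 higher, beside 24.8% and 13.3% of all genes. Under quantile normalization the all-gene split at that limit was 3441 lower and 3658 higher genes, against 3921 and 2097 here.

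The other 6 members passed neither limit. Gapdhs, at chr7:30729775-30743681 on the minus strand, had 227, 116 and 123 FPKM in A0, 120.3, 178 and 259 in A10, 173, 179.6 and 151 in A50, 149, 162 and 126 in B0, 194, 369.7 and 158 in BA10, and 261, 479 and 278 in BA50. The log2 change was 0.42 ± 0.20 (adjusted p = 0.110, limma). Hk1 had a log2 change of 0.26 ± 0.15 (adjusted p = 0.180), Slc16a7 of 0.18 ± 0.18 (adjusted p = 0.458) and Pgk2 of 0.01 ± 0.17 (adjusted p = 0.958), all by limma. The sign of the Pgk2 value was negative with quantile normalization (-0.00679). Eno4 had a log2 change of -0.52 ± 0.26 (adjusted p = 0.125, limma) and Pgam2 of -0.37 ± 0.18 (adjusted p = 0.113, limma). A p that misses the limit does not show that a gene kept its level.

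The members were also compared with each other within samples. Measured against the mean log2 level of the other 9 members in its own sample, Slc2a3 changed with busulfan by -1.99, Cyct by -1.68 and Pdha2 by -0.45 on the log2 scale. Gapdhs changed by 1.15, Hk1 by 0.97, Slc16a7 by 0.88, Pgk2 by 0.70, Pgam2 by 0.28, Eno4 by 0.11 and Ldhc by 0.04. These are relative values, in which each member that falls raises the others, and they are given as a description. Leaving out any single sample kept them between -2.14 and -1.80 for Slc2a3, between -1.75 and -1.62 for Cyct and between 1.10 and 1.21 for Gapdhs.

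**Figure D2:**
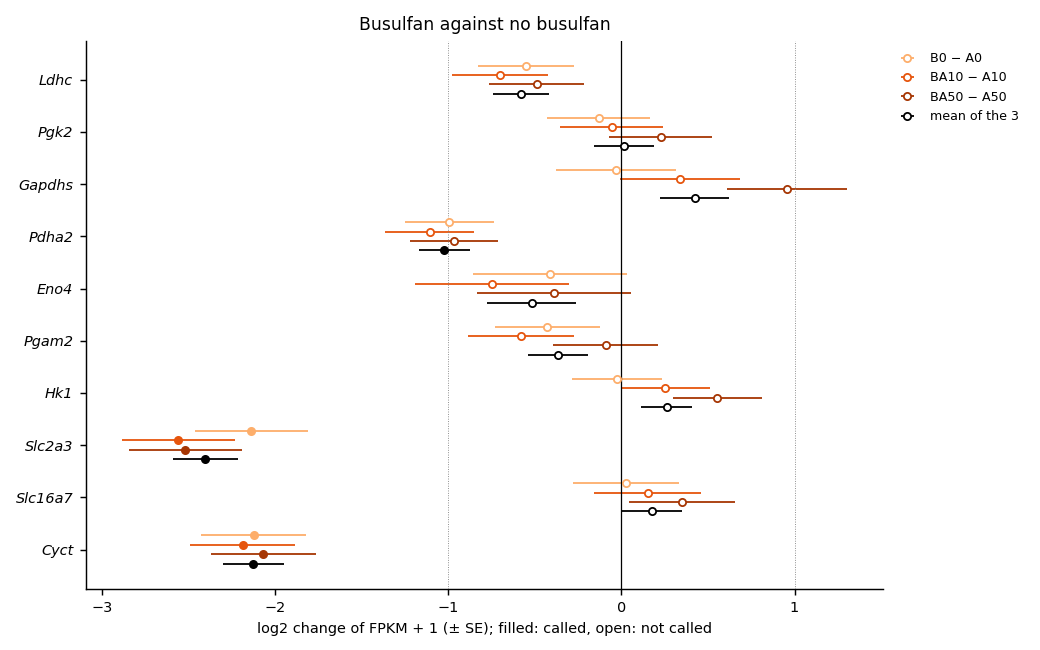
log2 change of FPKM + 1 between busulfan and no busulfan for each isozyme, without AOS, at 10 and 50 µg/mL AOS and as the mean of the 3 (points, with SE bars), with dotted lines at the fold limit. Slc2a3 and Cyct lie beyond -2 in all 4 rows, Pdha2 lies near -1, and Gapdhs runs from -0.03 without AOS to 0.96 at 50 µg/mL.

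The same comparison was then made at each AOS concentration. Without AOS, Slc2a3 had a log2 change of -2.14 ± 0.33 (adjusted p = 0.000323, limma) and Cyct of -2.12 ± 0.30 (adjusted p = 0.000182, limma), and both were called, beside 2.49% of all genes called lower. Pdha2 had -0.99 ± 0.26 (adjusted p = 0.0162). Samples of B0 and A0 did not overlap for these 3 members, all lower, where 22.7% of all genes were lower without overlap. An exact permutation test of 3 against 3 samples gave p = 0.1 for each of the 3, the smallest it can give. The call limit for Slc2a3 and Cyct was lost, with adjusted p-values of 0.00149 to 0.00294, when A0 replicate 1, A0 replicate 3, B0 replicate 1 or B0 replicate 3 was left out.

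At 10 µg/mL AOS, Slc2a3 (-2.56 ± 0.33, adjusted p = 5.1e-05, limma) and Cyct (-2.19 ± 0.30, adjusted p = 0.000114, limma) were called, beside 3% of all genes called lower. The 4 members Ldhc, Pdha2, Slc2a3 and Cyct were lower without overlap, as were 20.2% of all genes. Without A10 replicate 3, BA10 replicate 2 and BA50 replicate 2 in the fit, the changes were -2.05 for both genes, with adjusted p-values of 0.00238 and 0.00236, over the limit. At 50 µg/mL AOS, Slc2a3 (-2.52 ± 0.33, adjusted p = 4.7e-05, limma) and Cyct (-2.07 ± 0.30, adjusted p = 0.000152, limma) were called, beside 3.36% of all genes. Cyct lost its call without A50 replicate 1 (adjusted p = 0.00106) or A50 replicate 2 (adjusted p = 0.00114). Here the 4 members were again lower without overlap (25.7% of all genes), and Gapdhs and Hk1 were higher without overlap (16% of all genes). Gapdhs was 2.02-fold higher in BA50 than in A50 (log2 change 0.96 ± 0.35, adjusted p = 0.0671, limma) and Hk1 1.49-fold higher (0.55 ± 0.26, adjusted p = 0.153, limma), and neither was called.

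Markers of germ cell stages were read beside these values. Spermatocyte markers (8 genes, among them Sycp1, Sycp3 and Spo11) summed to 222 to 308 FPKM in the samples without busulfan and to 31.1 to 64.0 FPKM with it, and 7 of 8 were called lower over the 3 concentrations. Spermatogonium markers (7 genes) summed to 128 to 224 and to 62.2 to 122 FPKM, and 3 of 7 were called lower. Beside both lists, 3.52% of all genes were called lower. Spermatid markers (9 genes, among them Prm1, Tnp1 and Odf1) summed to 2379 to 4934 FPKM without and to 2302 to 10930 FPKM with busulfan, with 9 of 9 log2 changes above 0, 0 of 9 called by limma and 2 of 9 higher at an unadjusted p under 0.05, where 19.4% of all genes were higher and 28% lower. Sertoli markers (8 genes) summed to 1512 to 5162 and to 4026 to 6771 FPKM, with 0 of 8 called by limma and 3 of 8 higher at an unadjusted p under 0.05. Abundant genes weigh most in these sums. Clu had 2760 and Ctsl 1180 of the 4122 FPKM of the Sertoli sum in A0 replicate 1. Prm1 had 3057 and Prm2 4128 of the 10930 FPKM of the spermatid sum in BA50 replicate 2. Uchl1 had 93.6 of the 110.7 FPKM of the spermatogonium sum in BA50 replicate 1. In samples of whole tissue, fewer cells of a type and less RNA per cell cannot be told apart, and the part of these markers in the isozyme values was not tested.

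**Figure D3:**
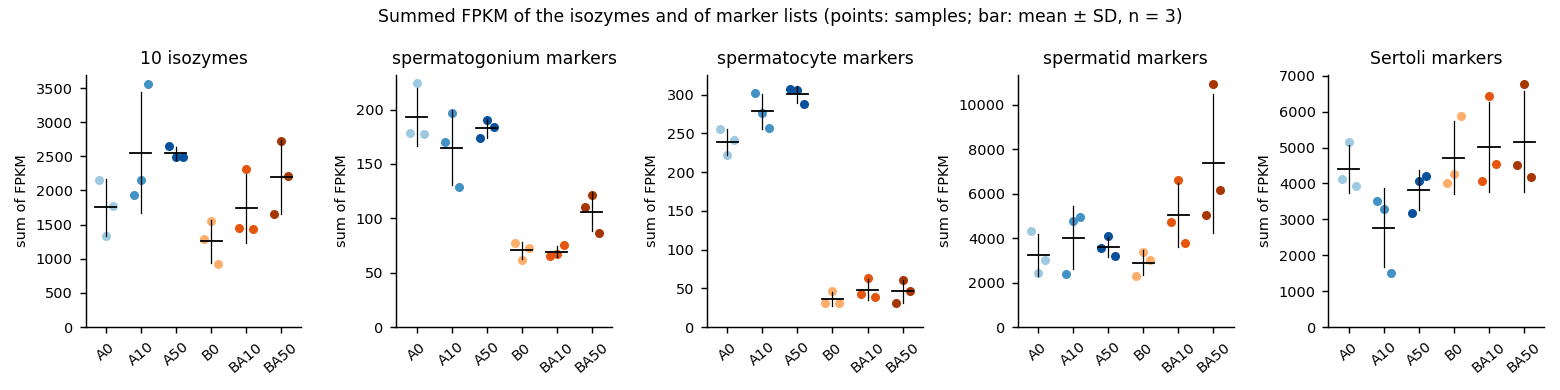
Summed FPKM of the 10 isozymes and of the spermatogonium, spermatocyte, spermatid and Sertoli marker lists in each sample (points), with group mean and SD (bars, n = 3) and linear axes from 0. The spermatocyte sums of all 9 busulfan samples lie under 65 FPKM and those of the others over 220, whereas the spermatid sums overlap. Abundant genes weigh most in each sum.

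Other genes of the pathway were read from lists of general knowledge. Of 18 somatic glycolysis genes, 1 was called lower over the 3 concentrations, Eno3, the muscle enolase, which had 3.95 to 12.1 FPKM without and 0.580 to 2.38 with busulfan (log2 change -1.89 ± 0.13, adjusted p = 3.3e-08, limma). None was called higher. At an adjusted p under 0.05, 5 of the 18 (Pkm, Pgam1, Pfkl, Aldoa and Hk2) were higher, by 0.24 to 0.33, beside 13.3% of all genes. Pfkm, the muscle phosphofructokinase, was lower (-0.49 ± 0.08, adjusted p = 0.000209, limma), where 24.8% of all genes were lower at an adjusted p under 0.05. Of 6 genes of the respiratory chain with testis or other tissue forms, Cox8c (-1.14 ± 0.17, adjusted p = 7.3e-05) and Cox7b2 (-1.13 ± 0.14, adjusted p = 1.1e-05), testis forms of subunits of cytochrome c oxidase, were called lower by limma, and Cox6b2, another testis form, had -0.79 ± 0.16 (adjusted p = 0.00114).

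Of 11 genes of the pyruvate dehydrogenase complex with its kinases and phosphatases, 0 were called by limma, while 5 were lower at an adjusted p under 0.05 (Pdhb, Dlat, Pdhx, Dld and Pdk2), the first 2 by -0.34 ± 0.04 and -0.37 ± 0.05, and 5 were lower and 1 higher at an unadjusted p under 0.05. Pdhb and Dld (-0.15 ± 0.05, adjusted p = 0.0184, limma) were the most abundant of the list. Of 13 other germ cell energy genes, 0 were called by limma, and 3 were lower at an adjusted p under 0.05, namely Ldhal6b, a further testis lactate dehydrogenase (-0.64 ± 0.15), Gk2, a testis glycerol kinase (-0.43 ± 0.15), and Slc2a8 (-0.42 ± 0.09). At an unadjusted p under 0.05, 3 were lower and 2 higher. Of 6 other lactate and pyruvate transport genes tested, 0 were called, and Mpc1, a subunit of the mitochondrial pyruvate carrier, was higher at an adjusted p under 0.05 (0.29 ± 0.08). At an unadjusted p under 0.05, 2 were higher and 1 lower. Bsg, the partner protein of the lactate carriers, was the most abundant of them (-0.04 ± 0.20, adjusted p = 0.901, limma), and Mpc2, the other subunit of the pyruvate carrier, came next (-0.32 ± 0.15, adjusted p = 0.0954, limma). The genes listed for passing an adjusted p under 0.05 were picked out after their values were seen. At that limit 24.8% of all genes were lower and 13.3% higher. At an unadjusted p under 0.05, 28% of all genes were lower and 19.4% higher.

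Each member was also set against a related gene used in body cells, in the same sample, which cancels the scaling of the sample. Hk1, Slc2a3, Slc16a7 and Pgam2 are themselves used outside germ cells, so their shares do not part germ cell from body cell RNA. Whether the shares of the other pairs do so was not tested. The share is the member's FPKM as a percentage of the FPKM of the pair, and changes were tested on the log2 ratio of FPKM + 1 with an exact two-sided permutation test within AOS concentrations, over 8000 arrangements. In all 10 pairs were tested and these p-values are not adjusted. The pairs share 64.9% to 79.3% of aligned coding bases, and none has a stretch of 50 bases in common.

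Slc2a3 held 68.5 ± 9.15% of the Slc2a3 and Slc2a1 pair without busulfan (SD, n = 9) and 26.5 ± 8.77% with it. Slc2a1 is GLUT1, the widespread glucose transporter. The shares ran from 49.4% to 82.6% and from 14.4% to 42.1%, without overlap, and the log2 ratio changed by -2.65 (exact permutation p = 0.00025). Cyct held 66.1 ± 10.2% and 29.2 ± 9.51% of the pair with Cycs, the somatic cytochrome c, with ranges of 45.0% to 80.3% and 15.0% to 41.6%, again without overlap (log2 ratio -2.26, exact permutation p = 0.00025). The somatic form was thus the more abundant cytochrome c in each busulfan sample, and the testis form in all but 1 of the others.

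Pdha2 held 65.7 ± 9.35% of its pair with Pdha1 without busulfan and 45.1 ± 13.1% with it (log2 ratio -1.22, exact permutation p = 0.00025). Pgam2 held 48.8 ± 6.95% and 38.9 ± 11.0% of the pair with Pgam1 (log2 ratio -0.61, exact permutation p = 0.00975). Ldhc held 67.7 ± 3.63% and 60.7 ± 7.78% of the pair with Ldha (log2 ratio -0.43, exact permutation p = 0.016). The mean shares of these 5 members were lower with busulfan at each of the 3 AOS concentrations. All 5 of these shares kept their direction and an exact p under 0.05 when any single sample was left out.

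The other 5 pairs did not pass over the 3 concentrations, and the means of some went opposite ways at different concentrations. Gapdhs held 9.92 ± 2.66% of its pair with Gapdh without and 13.0 ± 8.19% with busulfan (log2 ratio 0.26, exact permutation p = 0.452). By concentration its mean share was 10.6% in A0 against 6.53% in B0, 8.61% in A10 against 14.0% in BA10, and 10.6% in A50 against 18.4% in BA50. Pgk2 held 33.8 ± 6.15% and 32.6 ± 13.5% of its pair with Pgk1 (-0.13, exact permutation p = 0.644), with means of 31.8% in A0 against 22.1% in B0, 31.6% in A10 against 34.3% in BA10, and 38.1% in A50 against 41.3% in BA50. Hk1 held 80.2 ± 3.90% and 79.7 ± 5.12% of its pair with Hk2 (-0.02, exact permutation p = 0.902). Slc16a7 held 62.8 ± 8.40% and 63.4 ± 10.9% of its pair with Slc16a1, the lactate carrier MCT1 (0.07, exact permutation p = 0.806).

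Eno4 held 25.6 ± 15.3% and 17.5 ± 13.0% of its pair with Eno1 (-0.75, exact permutation p = 0.394), and Eno1 made this pair unsteady. Eno1 had 470 FPKM in A10 replicate 3, 486 in B0 replicate 1, 456 in BA50 replicate 1 and 109 in A0 replicate 2, and at most 40.9 in the other 14 samples. Eno1 shares 25.3% of its stretches of 50 bases with Eno1b, a near copy with 99.4% identical coding bases, so its level is uncertain. Eno4 was highest of its group in the same A10, B0 and BA50 samples, at 11.8, 7.59 and 8.50 FPKM.

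**Figure D4:**
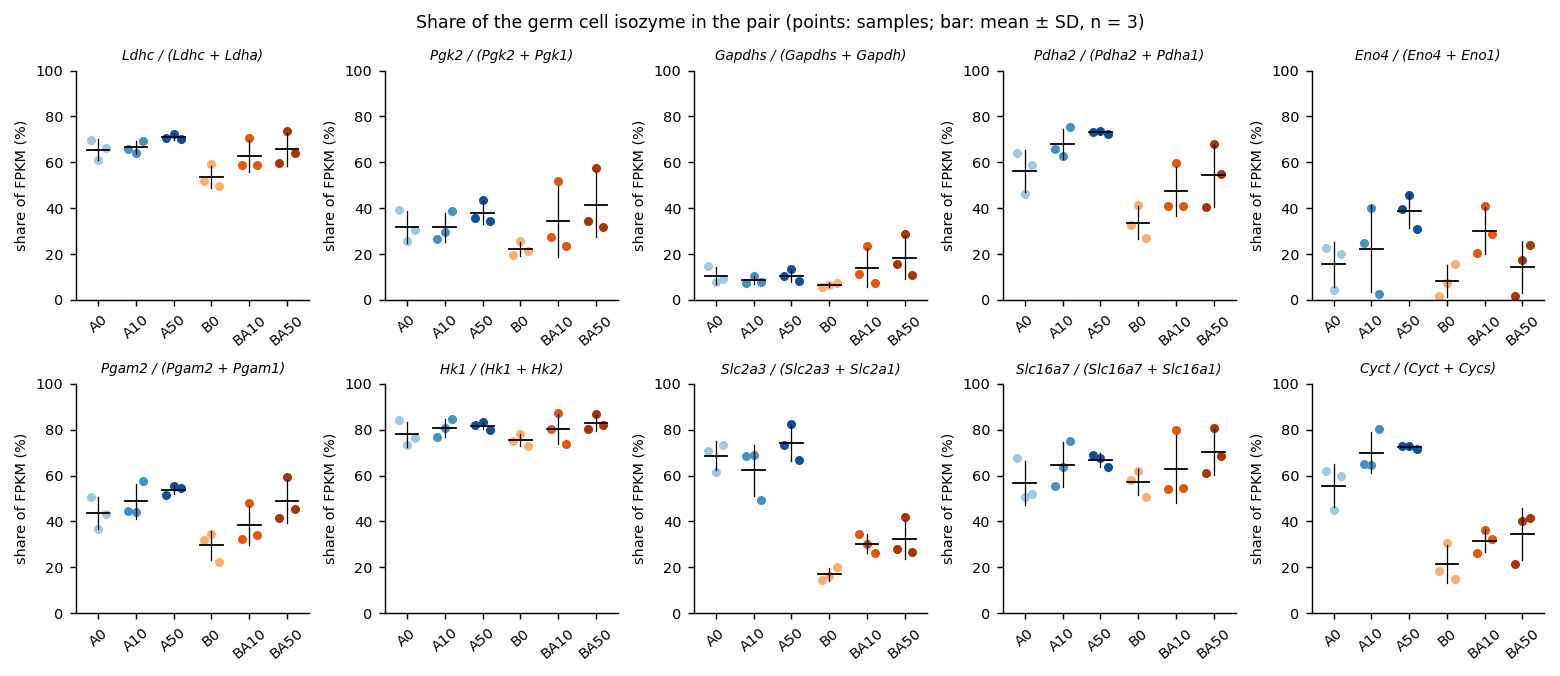
Share of the member in the summed FPKM of its pair, in percent, for the 10 pairs in each sample (points), with group mean and SD (bars, n = 3) and axes from 0 to 100%. The Slc2a3 and Cyct shares with busulfan lie under all shares without it, while the Hk1 and Slc16a7 shares stay in the same range.

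AOS was then compared with no AOS. The A10 and A50 comparisons share the A0 samples, and the BA10 and BA50 comparisons share B0, so they are given side by side and not as independent results. All 10 members had a log2 change above 0 in each of the 4 comparisons, also with quantile normalization. With single samples left out, Gapdhs (-0.013) and Hk1 (-0.026) turned below 0 in A10 without A10 replicate 3. Eno4 turned below 0 in BA10 without BA10 replicate 2 (-0.33) or without B0 replicate 3 (-0.30). The share of all genes above 0 was 42.1% for A10, 41.6% for A50, 44.4% for BA10 and 44.7% for BA50. Many members moved together between samples of a group (Gapdhs and Hk1, r = 0.992 after group means, Ldhc and Pgam2, r = 0.968), though not Gapdhs and Slc2a3 (-0.03). Members are thus not independent, and counts of members here and below are only a description. Limma called 0 members and 0% of all genes in each of the 4 comparisons, and 0 members had an adjusted p under 0.05, beside 0% of all genes in A10 and A50, 0.0253% in BA10 and 0.095% in BA50.

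In testes of untreated mice, the median log2 change of the members was 0.47 in A10 and 0.48 in A50, against -0.06 over all genes for both. Values ran from 0.18 (Hk1) to 0.72 (Slc2a3) in A10 and from 0.18 (Gapdhs) to 0.79 (Slc2a3) in A50. Slc2a3 was 1.66-fold higher in A10 (log2 change 0.72 ± 0.33, adjusted p = 0.322, limma) and 1.70-fold higher in A50 (0.79 ± 0.33, adjusted p = 0.289, limma). Ldhc was 1.57-fold higher in A50 (0.67 ± 0.28, adjusted p = 0.289, limma). The 3 members Pdha2, Slc2a3 and Cyct were higher without overlap in A10 and 5 members (those 3, Ldhc and Pgam2) in A50, where 7.81% and 17.6% of all genes were higher without overlap. At an unadjusted p under 0.05 there were 3 members higher in A10 (4.51% of all genes) and 3 in A50 (9.85%). Without A10 replicate 3, BA10 replicate 2 and BA50 replicate 2 in the fit, the median of the members in A10 was 0.16, Slc2a3 had 0.49 ± 0.33, and 0 members were higher at an unadjusted p under 0.05 (2.04% of all genes), against 4 in A50 (14%).

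In testes of busulfan mice, the median of the members was 0.44 in BA10 and 0.71 in BA50, against -0.03 and -0.04 over all genes. With all samples Gapdhs had the highest value in both, a rank that did not hold in BA10 without BA10 replicate 2 or without B0 replicate 2. It was 1.65-fold higher in BA10 (0.63 ± 0.35, adjusted p = 0.749, limma), or 0.27 ± 0.26 without the 3 samples that stood apart, where Slc2a3 had 0.59 ± 0.33 and Cyct 0.52 ± 0.33. Gapdhs was 2.33-fold higher in BA50 (1.17 ± 0.35, adjusted p = 0.111, limma; exact permutation p = 0.1), or 0.89 ± 0.26 without those 3 samples (adjusted p = 0.172, limma). In BA50, Pgam2 (0.88 ± 0.30, adjusted p = 0.126), Hk1 (0.77 ± 0.26, adjusted p = 0.121) and Pgk2 (0.76 ± 0.30, adjusted p = 0.152) followed by limma, and Slc2a3 had 0.41 ± 0.33 (adjusted p = 0.436).

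The 5 members Pgk2, Gapdhs, Pgam2, Hk1 and Slc16a7 were higher in BA50 than in B0 without overlap, and 0 members in BA10, where 11.2% and 3.64% of all genes were. At an unadjusted p under 0.05 by limma there were 7 members higher in BA50 (12.7% of all genes) and 0 in BA10 (1.89%). Without the 3 samples the medians were 0.20 in BA10 and 0.56 in BA50, and 6 members were higher in BA50 (9.33% of all genes) and 0 in BA10 (0.931%) at that unadjusted limit. Even with AOS, Slc2a3 in BA50 (24.9 to 51.0 FPKM) and Cyct (11.0 to 21.7 FPKM) stayed under the lowest A0 samples (88.1 and 33.0 FPKM).

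Spermatid markers had higher values beside the members. Their sum was 2906 ± 555 FPKM in B0, 5056 ± 1437 in BA10 and 7376 ± 3128 in BA50, or 4271 in BA10 without its replicate 2 and 5600 in BA50 without its replicate 2 (means of 2 samples). The median of their log2 changes stood at 0.65 for BA10 and 1.10 for BA50, with 9 of 9 above 0, where 44.4% and 44.7% of all genes were. By limma 0 of 9 had an adjusted p under 0.05 in either, and 3 in BA10 and 6 in BA50 were higher at an unadjusted p under 0.05. Of all genes, 1.89% and 12.7% were higher at that unadjusted limit. Sertoli markers summed to 4405 ± 662 FPKM in A0, 2775 ± 1100 in A10 (3406 without A10 replicate 3, the mean of 2 samples) and 3816 ± 561 in A50, with 8 of 8 log2 changes under 0 in A10 and A50. Only 42.1% and 41.6% of all genes were above 0 there. Fat cell markers, which were high in B0 only, fell in BA50 for 4 of 5 genes at an adjusted p under 0.05, a limit met by 0.095% of all genes in either direction. Of the other lists in BA50, 13 of 13 other germ cell energy genes and 5 of 18 somatic glycolysis genes had values above 0, with medians of 0.64 and -0.15 and 0 genes at an adjusted p under 0.05. The part of these markers in the member values was not tested.

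Shares of the pairs were also compared between AOS and no AOS, on the log2 ratio, for the 10 pairs in each comparison. The ratio was above 0 for 7 pairs in A10 and for all 10 in A50, BA10 and BA50. The samples did not overlap, with the member's share higher under AOS, for 1 pair in A10 (Cyct), 5 in A50 (Ldhc, Pdha2, Eno4, Pgam2 and Cyct), 2 in BA10 (Eno4 and Slc2a3) and 6 in BA50 (Ldhc, Pgk2, Gapdhs, Pgam2, Hk1 and Slc2a3). Each of these had an exact permutation p of 0.1, the smallest that 3 against 3 samples can give. No such count was made over other pairs of genes, and the 10 pairs share their samples, so these counts are only a description. A share also rises when the counterpart is lower. In BA10 the log2 ratio of Eno4 to Eno1 changed by 2.65 and Eno4 itself by 0.08. Eno1, whose level is uncertain, had 179 ± 267 FPKM in B0 and 9.08 ± 1.59 in BA10. The ratio of Slc2a3 to Slc2a1 changed by 1.08 in BA10 and Slc2a3 itself by 0.30. Slc2a1 had 138 ± 57.7 FPKM in B0 and 82.3 ± 48.3 in BA10. The Gapdhs share was 5.71%, 6.36% and 7.51% in B0 and 15.5%, 28.8% and 11.0% in BA50. The Slc2a3 share was 14.4%, 16.2% and 20.2% in B0 and 28.1%, 42.1% and 26.6% in BA50, under the lowest A0 value of 61.7%.

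The AOS change with busulfan was tested against the AOS change without it. For the 10 members the difference ran from -0.42 (Slc2a3) to 0.37 (Gapdhs) at 10 µg/mL and from -0.38 (Slc2a3) to 0.99 (Gapdhs) at 50 µg/mL. Limma called 0 of 10 members and 0% of all genes at both, and 0 members had an unadjusted p under 0.05, beside 3.97% and 6.28% of all genes. The smallest adjusted p of a member was 0.831, for Gapdhs at 50 µg/mL (0.99 ± 0.49).

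**Figure D5:**
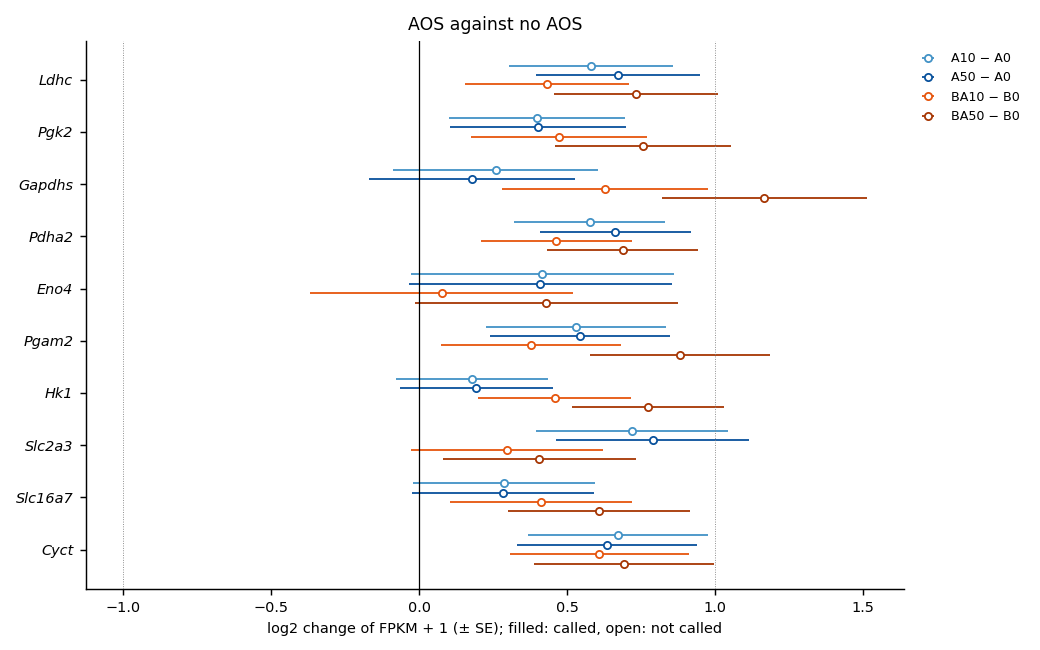
log2 change of FPKM + 1 between AOS and no AOS for each isozyme, in testes of untreated mice (A10 and A50) and of busulfan mice (BA10 and BA50), as points with SE bars. All 40 points lie above 0, none is called, and Gapdhs in BA50 is the only one beyond 1.

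The isozymes' likeness over samples was described with Pearson's r on log2(FPKM + 1) over the 18 samples, which share libraries, groups and depth. Gapdhs and Hk1 were most alike (r = 0.991, and 0.992 after the group means were taken out), and Slc2a3 and Cyct came next to each other (r = 0.969, and 0.669 after group means). Gapdhs and Slc2a3 had r = -0.28, and -0.03 after group means. Ldhc went with Pgam2 (0.953) and Pdha2 (0.938), and Pgk2 with Slc16a7 (0.949) and Hk1 (0.920). Among genes outside the members, Gsg1 was the most like Gapdhs (r = 0.998) and Hk1 (0.991), Pebp4 the most like Ldhc (0.996), Gramd1c the most like Cyct (0.993), Morn5 the most like Pgam2 (0.992) and Lrguk the most like Pdha2 (0.992). Fam221a was the most like Slc2a3 (0.990), Spata6 the most like Pgk2 (0.988) and 4430402I18Rik the most like Slc16a7 (0.985). Eno4 had no gene as close, the highest being Eif4e2 (0.858).

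RefSeq promoter sequences were read for the members and their counterparts. They exist here for 8 of the 10 members and all 10 counterparts, as windows of 250 bases before and 50 after each start on GRCm38.p6. Slc2a3, which moved most with busulfan, and Slc16a7 had no promoter entry and were not read. Upstream parts of 5 are shown, 2 of members that fell (Cyct and Pdha2), Ldhc as the most abundant member, and Pgk2 beside the X-linked Pgk1 from which it derives. Capitals mark TGACG (letters of the cAMP response element), GGGCGG (the GC box), CCAAT and TATAAA, searched on both strands, so that their reverse complements are in capitals too. All run 5′ to 3′ on the gene's strand. They lie at chr2:76360454-76360703 (minus), chr3:141212356-141212605 (minus), chr7:46861013-46861262 (plus), chr17:40208610-40208859 (minus) and chrX:106186850-106187099 (plus).
Cyct: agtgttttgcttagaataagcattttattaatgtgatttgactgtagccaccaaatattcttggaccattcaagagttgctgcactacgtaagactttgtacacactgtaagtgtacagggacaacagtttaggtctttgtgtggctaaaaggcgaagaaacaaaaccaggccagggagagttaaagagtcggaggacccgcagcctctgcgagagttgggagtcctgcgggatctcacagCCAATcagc
Pdha2: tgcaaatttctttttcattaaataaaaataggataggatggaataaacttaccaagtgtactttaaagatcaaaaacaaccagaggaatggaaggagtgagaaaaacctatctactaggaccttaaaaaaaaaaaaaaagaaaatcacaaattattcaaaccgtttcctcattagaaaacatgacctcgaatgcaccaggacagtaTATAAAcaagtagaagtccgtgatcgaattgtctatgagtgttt
Ldhc: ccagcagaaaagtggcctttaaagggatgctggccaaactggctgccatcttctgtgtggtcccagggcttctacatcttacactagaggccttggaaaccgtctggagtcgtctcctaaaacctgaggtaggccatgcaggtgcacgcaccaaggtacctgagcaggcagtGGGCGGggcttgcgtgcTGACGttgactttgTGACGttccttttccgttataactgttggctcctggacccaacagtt
Pgk2: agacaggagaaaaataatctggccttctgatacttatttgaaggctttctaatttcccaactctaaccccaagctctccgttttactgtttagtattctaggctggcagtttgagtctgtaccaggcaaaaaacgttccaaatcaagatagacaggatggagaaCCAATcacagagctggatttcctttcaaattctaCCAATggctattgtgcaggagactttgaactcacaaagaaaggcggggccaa
Pgk1: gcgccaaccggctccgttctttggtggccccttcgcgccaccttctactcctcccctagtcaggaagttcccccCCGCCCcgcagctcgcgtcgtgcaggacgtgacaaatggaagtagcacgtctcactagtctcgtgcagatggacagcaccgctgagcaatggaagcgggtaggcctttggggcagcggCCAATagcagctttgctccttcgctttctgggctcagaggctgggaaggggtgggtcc

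The members' promoters held fewer GC boxes than those of their counterparts. In the 300-base windows, GGGCGG was found for 1 of 8 members (Ldhc, 78 bases before its upstream start) and for 8 of 10 counterparts, beside 35.7% of all 32851 promoters. For each motif a gene counts if any of its listed starts has it, whereas the share of all promoters takes each start alone. Eno1 had GGGCGG at starts 2 and 3 but not at start 1. Pgk1 had 5 matches, 4 of them after the start, and Pgk2 had 0. TGACG was found for 2 of 8 members, with a pair of matches 61 and 47 bases before the Ldhc start and 1 match 38 bases after a Gapdhs start, for 4 of 10 counterparts, and in 20.8% of all promoters. The full TGACGTCA, which contains TGACG, was in 0 of 8 members, 2 counterparts (Ldha and Cycs) and 1.79% of all promoters. CCAAT was in Pgk2 (86 and 52 bases before the start), Cyct (9 bases before) and Pgam2, that is 3 of 8 members, in 5 of 10 counterparts and in 37.4% of all. TATAAA was in Pdha2, 44 bases before the start, in 1 of 10 counterparts (Slc2a1) and in 13.6% of all. The GC content of the windows at the first listed start ran from 29.7% to 56.3% in the members and from 56.7% to 73.7% in the counterparts, with a median of 52.7% over all promoters. At start 2, Hk1 (63.3%) and Ldhc (57.3%) lay in the range of the counterparts and Gapdhs (54%) did not. These are matches of letters. Cyct and Pdha2, which fell together, had none of the 5 motifs in common.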

How the data were processed

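RNA-seq was done on 18 mouse testis cultures in 6 groups of 3, with groups and replicate numbers taken from the sample titles. The authors prepared poly(A) RNA libraries and deposited each gene's level per sample as FPKM, per the file headers, with 2 decimals. The supplementary methods name SOAPaligner and RPKM, whereas the submitters' processing notes name HISAT, Bowtie2, RSEM and GRCm38.p5, and which of them made the table is not given in the sources used here. Read counts are unknown, so no counting interval was computed and precision rests on the 3 samples of a group.

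Gene numbers were matched to symbols through RefSeq (20656 of 20811), and positions and exons were read from GENCODE on GRCm38. Values were tested with limma 3.58.1 in R 4.3.3 (lmFit, then eBayes with a mean-variance trend), after adding 1 to the FPKM and taking log2. The test covered 15790 genes that reached 1 FPKM in 3 or more samples, with all 18 samples in 1 fit, 1 coefficient per group and Benjamini-Hochberg adjustment over all genes tested. The limits (adjusted p at most 0.001, log2 change at least 1) are those of the study's methods, which used another test on read counts. The fit had 12 residual and 2.56 prior degrees of freedom. Exact two-sided permutation tests used the 20 divisions of 6 samples, or 8000 arrangements within AOS concentrations. On simulated data, 193, 194 and 199 of 200 genes changed by a log2 of 1.5, 2 and 3 were called among 15790 genes in the pooled busulfan comparison, and 155, 172 and 190 of 200 in B0 against A0, with 0 false calls in either. Each simulated gene was drawn independently from a normal distribution with its own SD within groups. The changed genes had a mean log2(FPKM + 1) above 1 and were only raised, whereas the members called were lower. In the real samples genes can deviate together (Gapdhs and Hk1, r = 0.992 after group means), so these rates need not hold there.

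The 10 members, the lists and the tests were chosen with earlier results of these data known. The genes named are the members, their counterparts, the called genes of each pathway list (or, where none was called, its 2 most abundant genes) and the gene most like each member. Genes of those lists named for an adjusted p under 0.05 fall outside that rule and were chosen after their values were seen. Of the pathway lists, Mpc1l is not analysed here and Slc16a8 did not pass the filter. Marker lists of Leydig, peritubular myoid, macrophage, erythrocyte and skeletal muscle cells were also read in the busulfan comparison over the 3 AOS concentrations. Of them, 0 of 5, 0 of 4, 0 of 4 and 0 of 2 tested genes and 1 of 2 were called (Eno3), and of the 6 muscle genes Mylpf had 1.92 to 3.70 FPKM, Eno3 0.580 to 12.1, Tnnt3 at most 0.300 and Ckm, Acta1 and Myh4 at most 0.210. Of 5 fat cell markers, 2 were called higher there and 4 in B0 against A0. Alternatives were a replicate block, a fit of the 2 groups only, eBayes without trend, a pseudocount of 0.1, quantile normalization, no filter, a filter on a mean of 5 FPKM, an adjusted p under 0.05 and each sample left out. Leaving out 3 samples together and a replicate block in B0 and BA50 only were chosen after seeing the data. Deviations of same-numbered samples correlated at 0.138 to 0.562 in B0 and BA50, where numbers may pair samples, and at under 0.1 for at least 1 pair elsewhere. Python 3.11.15, NumPy 2.4.6, pandas 2.3.3, SciPy 1.17.1, matplotlib 3.10.9 and Biopython 1.88 were used.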

Additional observations from a re-analysis of the deposited data

How the results depend on the processing

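The count of called members was 0 in place of 2 in each of the B0, BA10 and BA50 busulfan comparisons when only the 2 groups compared were fitted, which leaves fewer samples to estimate the spread. It was 0 at 10 µg/mL without A10 replicate 3, BA10 replicate 2 and BA50 replicate 2, and the cause was not tested. Leaving out 1 sample gave 0 to 2 called members without AOS, 2 at 10 µg/mL, 1 to 2 at 50 µg/mL and 2 to 3 over the 3 concentrations. In the last, the count ran from 2 (quantile normalization) to 4 (adjusted p under 0.05) over the other settings. With the replicate block the counts were 2, 2, 2 and 3 in the busulfan comparisons and 0 in all AOS comparisons, and in the fit of B0 and BA50 only, where same-numbered samples deviated together, 0. The block changed no call of a member. A pseudocount of 0.1, no filter, a mean of at least 5 FPKM and eBayes without trend changed none of these counts.

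Some values that were not called turned their sign, and the cause was not tested. Over the 3 concentrations Pgk2 was -0.00679 with quantile normalization, -0.06 without the 3 samples, and -0.091 to 0.10 when 1 sample was left out. Without the 3 samples, Gapdhs (-0.013) and Hk1 (-0.026) turned in A10, and Eno4 (-0.33) in BA10. When 1 sample was left out, the log2 changes without AOS were -0.31 to 0.083 for Pgk2, -0.20 to 0.28 for Gapdhs, -0.15 to 0.20 for Hk1 and -0.14 to 0.28 for Slc16a7. At 10 µg/mL they were -0.37 to 0.22 for Pgk2, -0.019 to 0.61 for Gapdhs, -0.020 to 0.46 for Hk1 and -0.19 to 0.39 for Slc16a7, and at 50 µg/mL -0.25 to 0.10 for Pgam2. In A10 they were -0.013 to 0.57 for Gapdhs and -0.026 to 0.40 for Hk1, and in BA10 -0.33 to 0.53 for Eno4. The log2 ratio of Hk1 to Hk2 was -0.13 to 0.075 and that of Slc16a7 to Slc16a1 -0.12 to 0.18. Depth is unknown, so its limit on low members such as Eno4 could not be measured.

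Over all genes, calls lower and higher were 393 and 8 without AOS, 474 and 2 at 10 µg/mL, 530 and 6 at 50 µg/mL, and 556 and 14 over the 3 concentrations. With only the 2 groups compared they were 58 and 0, 49 and 0, and 170 and 9. Among the 10679 genes with a mean of at least 5 FPKM they were 184 and 5, 260 and 1, 276 and 4, and 309 and 11. With a pseudocount of 0.1 the last comparison had 838 and 18.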
